A study of Mus musculus with 24 samples.

Results

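The 9 genes described here make microRNAs or act beside Argonaute when a microRNA silences its target: Drosha, Dgcr8, Xpo5, Dicer1, Tarbp2, Prkra, Tnrc6a, Tnrc6b and Tnrc6c. They were chosen by their names, from the known pathway, and are 9 of 30590 gene symbols counted in the differentiation course and 9 of 43629 Ensembl identifiers counted in the endpoint libraries. All 9 were found in both sets, and all 9 passed the filter on low counts in both. The Argonautes themselves are not members and are given only where a result touches them.

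Polyadenylated RNA of E14 mouse embryonic stem cells (mESC; 129/Ola background) was sequenced from cells labelled wild type (WT) and from AGO2 knock out cells (KO), in which the Argonaute 2 gene, Ago2, was the target. The differentiation course held 16 libraries, 2 of each genotype on each of days 1, 2, 3 and 4 of a protocol directed to extraembryonic endoderm (XEN), in RPMI medium with 15% fetal bovine serum, 0.1 µM all-trans retinoic acid and 10 ng/mL activin A. The 6 endpoint libraries were 2 of WT cells taken to the XEN state over 5 days of the same protocol (WT diff_XEN), 2 of KO cells treated the same way (KO diff_XEN) and 2 of undifferentiated WT mESC at passages 33 and 42, kept in DMEM with 15% serum and 100 U/mL of leukaemia inhibitory factor. The KO diff_XEN libraries came from 2 clones, named C4 and 5-3, with 1 library each, and the clone behind the KO course libraries is not stated. Day 0 KO cells were not analysed here. The labels do not say whether replicates came from separate cultures, and a p-value here therefore reflects no more than the scatter of these samples, possibly a technical one.

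A microRNA is first cut out of a long nuclear transcript by the Microprocessor, in which Drosha is the RNase and Dgcr8 the double-stranded RNA-binding partner that holds it on the hairpin. Xpo5 carries the hairpin to the cytoplasm, where Dicer1 cuts off the loop with the help of Tarbp2 or Prkra, and the mature strand is loaded into an Argonaute. The GW182 proteins, encoded by Tnrc6a, Tnrc6b and Tnrc6c, bind the Argonaute and recruit the deadenylases and decapping factors that repress the target. Mouse embryonic stem cells that lack Dicer1 or Dgcr8 survive but are known to differentiate poorly, and the miR-290 and miR-302 families are characteristic of the pluripotent state, whereas let-7 accumulates as cells leave it.

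The course libraries held 10601574 to 27147835 counts each and the endpoint libraries 13941826 to 40139219. Levels below are CPM, counts relative to the scaled library size, and a difference is called where edgeR's quasi-likelihood test, adjusted by the method of Benjamini and Hochberg for every gene tested, gave p below 0.05. Ago2 itself stood at 332 and 414 CPM in the WT and 33.8 and 43.4 CPM in the KO libraries of day 1 and at 514 and 581 against 109 and 148 CPM on day 4, a difference of -3.27 ± 0.31 and -2.09 ± 0.30 on the log2 scale, and it was called on all 4 days although reads of the gene remained. The WT diff_XEN libraries held 389 and 427 CPM of it, against 115 CPM in KO clone C4 and 9.35 CPM in clone 5-3, a difference of -2.73 ± 1.04 that was not called (adjusted p = 0.0808). Which part of the gene was removed is not given in the sources used here. The genotypes also differed in cell markers. All 8 markers of extraembryonic endoderm were lower in KO on day 1, 6 on day 2, 7 on day 3, 6 on day 4 and 8 in diff_XEN, and their summed level on day 4 was 5511 to 5690 CPM in WT and 796 to 999 CPM in KO. The 6 stem cell markers were not called between genotypes on days 1 to 4, whereas 4 were lower in KO diff_XEN, and their sum on day 4 was 201 to 392 CPM in WT and 76.9 to 191 CPM in KO. Of 4 neural markers, 1 was higher in KO on each day, and they summed to 25.4 to 55.9 CPM in WT and 53.3 to 110.1 CPM in KO on day 4. Of 5 mesenchyme markers 3 were higher and 1 lower in KO diff_XEN, where they summed to 2319 to 3705 CPM against 310.0 to 708 CPM in WT. No marker of the endoderm, stem cell or neural lists was at 0 in every library of a group, but of the mesenchyme markers Dcn was at 0 on day 1 of WT, Col3a1 on day 2 of WT and day 1 of KO, and Postn and Dcn in mESC. The part of these shifts in the results below was not tested, and in bulk RNA fewer cells of a type and less RNA per cell cannot be told apart.

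Transcripts of this pathway can be targets of its own products, so the sequences at which microRNAs could pair with the members are shown before the levels. The 4 mature microRNA families below were picked for the stem cell state (miR-294 and miR-302), for its exit (let-7), for a family reported to target Dicer1 (miR-103 and miR-107) and for a hairpin that lies inside Dgcr8 (miR-1306). Sequences are from RefSeq (GRCm38.p6, the assembly of mm10), written 5′ to 3′, with the seed, bases 2 to 8, in capitals. MicroRNA levels were not measured in these libraries.

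mmu-miR-294-3p, chr7:3220691-3220712: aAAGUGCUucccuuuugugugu
mmu-miR-302b-3p, chr3:127545275-127545297: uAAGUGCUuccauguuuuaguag
mmu-let-7a-5p, chr13:48538239-48538260: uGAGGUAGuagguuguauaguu
mmu-let-7g-5p, chr9:106178846-106178867: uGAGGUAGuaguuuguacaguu
mmu-miR-103-3p, chr2:131288103-131288125: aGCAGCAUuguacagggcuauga
mmu-miR-107-3p, chr19:34820700-34820722: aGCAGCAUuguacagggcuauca
mmu-miR-1306-5p, chr16:18284288-18284310: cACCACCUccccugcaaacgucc
mmu-miR-1306-3p, chr16:18284248-18284268: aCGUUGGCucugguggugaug

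The first and second of these share the seed AAGUGCU, the let-7 pair shares GAGGUAG, and miR-103 and miR-107 share GCAGCAU and differ only near their 3′ ends. The miR-1306 hairpin spans 79 bases, chr16:18284239-18284317 on the minus strand, within coding exon 2 of Dgcr8.

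For each member the coding transcript with the longest 3′ untranslated region was taken, and that region was searched on the sense strand for the 7 letters that pair with each seed, which are AGCACTT for the seed of miR-294 and miR-302b, CTACCTC for let-7 and ATGCTGC for miR-103 and miR-107. Windows of 23 bases ending in the match are printed below for members in which the match was found, with the match in capitals, and with a following A in capitals where it makes an 8-base match. The build is mm10, with transcripts of GENCODE vM21.

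Dicer1, seed of miR-103-3p, chr12:104690169-104690191, minus strand: ctgatgcttcatgtaATGCTGCA
Dgcr8, seed of miR-103-3p, chr16:18254044-18254066, minus strand: cttatatgtacagtcATGCTGCA
Tarbp2, let-7, chr15:102523429-102523451, plus strand: ccagaggtgccatctCTACCTCt
Tarbp2, seed of miR-103-3p, chr15:102523569-102523591, plus strand: tggagtcctgaataaATGCTGCt
Tnrc6b, seed of miR-294-3p, chr15:80931313-80931335, plus strand: tgcggggaacatgctAGCACTTg
Tnrc6b, seed of miR-294-3p, chr15:80935703-80935725, plus strand: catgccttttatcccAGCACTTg
Tnrc6c, seed of miR-294-3p, chr11:117762119-117762141, plus strand: gcgggcggccggccgAGCACTTg

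Tnrc6b held 2 further matches to miR-103-3p and Tnrc6c held 1, whereas none of the 3 seeds had a match in Drosha, Xpo5, Prkra or Tnrc6a. A match says only that these letters occur. The miR-103-3p match was present in 11.3% of all 20997 genes with a 3′ untranslated region, the miR-294-3p match in 14.7% and the let-7 match in 9.03%. Length bears on the count: the Tnrc6b region is 11609 bases long, and 78.5% of genes with a region of like length held a miR-294-3p match. The Dicer1 region is 3851 bases long, and 27.3% of genes of like length held the miR-103-3p match. For the 1574 bases of Dgcr8 that share was 11.6%. By contrast the Tarbp2 region is 334 bases long, and 2.72% of genes of like length held the let-7 match and 2.77% the miR-103-3p match.

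Expressed per kilobase of the longest coding transcript, so that genes can be set beside each other, the median level over the 16 course libraries was highest for Tarbp2 at 60.7 CPM per kb and for Drosha at 58.6 CPM per kb. Xpo5 at 24.8, Tnrc6a at 23.3 and Dicer1 at 19.7 CPM per kb formed the middle, followed by Prkra at 14.9 CPM per kb. Tnrc6b at 8.18, Dgcr8 at 7.98 and Tnrc6c at 6.15 CPM per kb were the lowest. In the course the Microprocessor's RNase thus outweighed its RNA-binding partner at the transcript level, per length. This order of the members belongs to the course libraries and to the length used. The longest coding transcript of Tarbp2 has 1523 bases and the union of its exons 4549. For Drosha these lengths are 4570 and 5935 bases. Levels per kilobase of the exon union were not computed. Within the endpoint libraries, mean Tarbp2 was 23.7 CPM per kb in WT mESC and 22.0 in WT diff_XEN. Drosha was at 76.7 and 45.3 CPM per kb in these 2 groups, and Dgcr8 at 24.2 and 18.8. Over the 16 course libraries the highest level exceeded the lowest 5.01 times for Tnrc6b, 4.24 times for Tnrc6a and 3.54 times for Dgcr8. The 6 others varied between 1.67 times (Xpo5) and 2.42 times (Tarbp2). The smallest count behind any member's level in the course was 229 reads (Prkra).

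**Figure D1:**
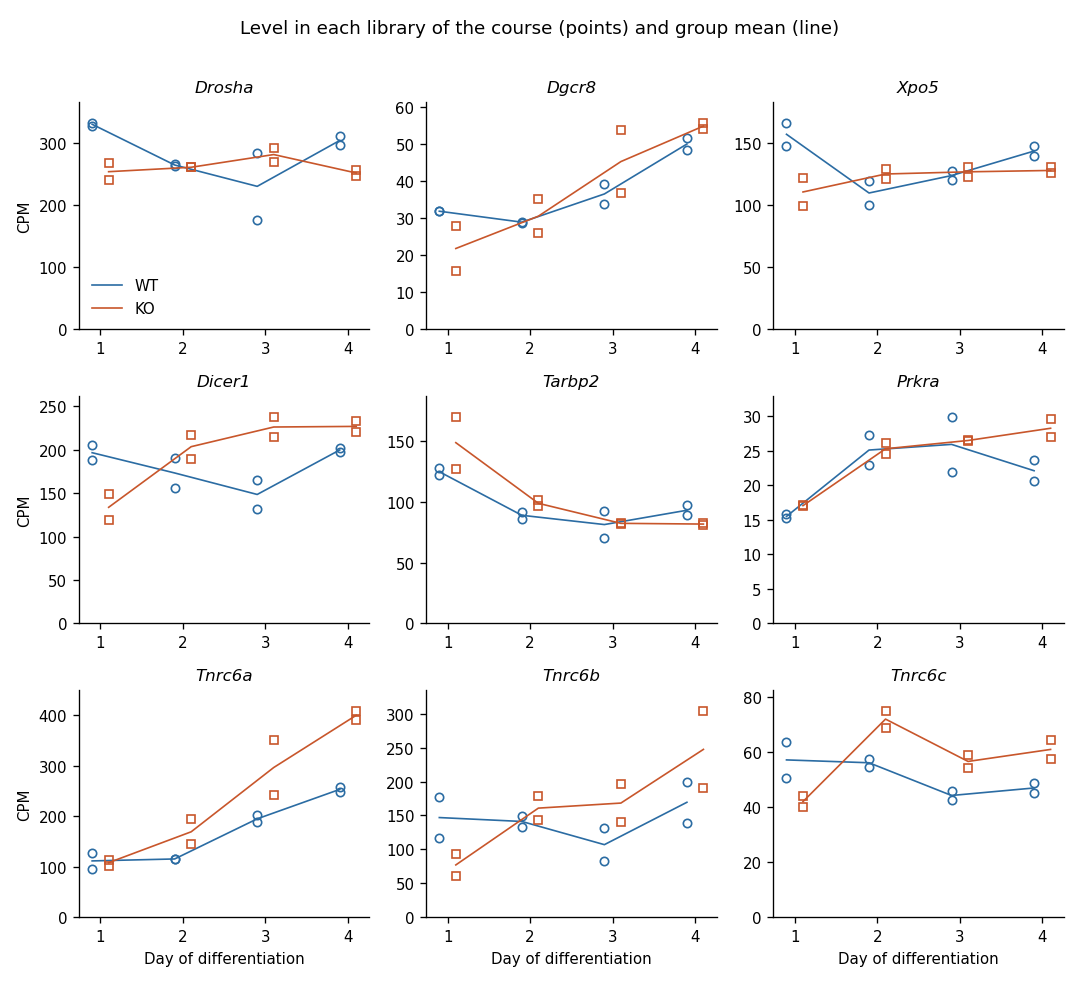
Level of each of the 9 genes in the 16 course libraries, 1 panel per gene, with the day of differentiation on the x axis and the level in CPM on the y axis. Points are single libraries and lines join the means of the 2 libraries of each genotype. Tnrc6a climbs in both genotypes to 391 and 409 CPM in the KO and 248 and 259 CPM in the WT libraries of day 4, whereas the day 1 to 4 changes of Xpo5 and Drosha were called in neither genotype.

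Between day 1 and day 4 of the WT course, 3 members rose and 1 fell, beside 26.9% of 17694 tested genes called higher and 21.6% called lower. The median change of the 9 was 0.023 on the log2 scale, against 0.012 for all genes. Over the same days of the KO course 6 members rose and 1 fell, beside 33.3% of genes called higher and 32.9% lower, with a median member change of 0.73 against -0.017 for all genes. Rises outnumbered falls among the called members, in a course that moved 48.5% of all genes in WT and 66.3% in KO past the threshold.

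Tnrc6a (chr7:123123885-123195296, plus strand), a GW182 protein gene, showed the largest rise of the members in both genotypes. It stood at 96.5 and 127 CPM in the WT libraries of day 1, 116 and 115 on day 2, 202 and 188 on day 3 and 248 and 259 on day 4. In KO the libraries held 114 and 102 CPM on day 1, 145 and 194 on day 2, 242 and 352 on day 3 and 391 and 409 on day 4. In both genotypes every day 4 library lay above every day 1 and day 2 library. The day 1 to 4 change was 1.18 ± 0.19 (log2 ± SE) in WT, adjusted p = 0.000173, and 1.89 ± 0.19 in KO, adjusted p = 2.05e-06, and both calls held with any 1 of the libraries compared left out. The 2 changes differed by 0.71 ± 0.27, which was not called (adjusted p = 0.111).

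The start of Tnrc6a is shown because this gene had the most marked change of the 9. The 250 bases before its start, from RefSeq (GRCm38.p6), are chr7:123123635-123123884 on the plus strand, with the 1 match to AGGTCA in capitals, the core letters bound by many nuclear receptors, retinoic acid receptors among them.

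Tnrc6a, upstream bases: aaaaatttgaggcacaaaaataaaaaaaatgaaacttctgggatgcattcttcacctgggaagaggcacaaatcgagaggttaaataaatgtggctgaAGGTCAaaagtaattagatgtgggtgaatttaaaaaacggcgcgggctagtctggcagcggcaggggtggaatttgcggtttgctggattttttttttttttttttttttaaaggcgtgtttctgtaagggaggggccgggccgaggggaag

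It holds 9 CG dinucleotides, at the 59.7th percentile of 32851 promoters, and AGGTCA on either strand was found in 14% of those promoters. Among the members the letters also occurred before 1 start of Tnrc6b, in chr15:80798360-80798609, and not before its other start. Binding at these letters was not tested. For contrast, the 250 bases before the RefSeq start of Dgcr8, chr16:18289169-18289418 on the minus strand, hold 36 CG dinucleotides, at the 97.4th percentile, and 1 GC box, GGGCGG on either strand, in capitals. The GC box letters occurred in 32.7% of promoters. The RefSeq start of Dgcr8 differs from that of the GENCODE gene span given below, which begins inside this window.

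Dgcr8, upstream bases: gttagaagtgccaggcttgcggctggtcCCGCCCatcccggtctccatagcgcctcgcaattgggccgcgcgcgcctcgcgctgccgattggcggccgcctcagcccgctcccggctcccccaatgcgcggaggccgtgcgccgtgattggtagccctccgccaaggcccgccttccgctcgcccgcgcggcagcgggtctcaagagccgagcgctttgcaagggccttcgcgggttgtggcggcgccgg

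Tnrc6b (chr15:80711313-80941085, plus strand), the second GW182 gene, rose in the KO course and was not called in the WT course, and the difference between the genotypes' changes did not pass the test. WT libraries held 116 and 177 CPM on day 1 and 139.5 and 199 CPM on day 4, ranges that overlap. KO libraries held 93.5 and 60.7 CPM on day 1, 144 and 178 on day 2, 139.9 and 197 on day 3 and 190.3 and 304 on day 4, with day 1 below all later days and replicates far apart on day 4. The KO change was 1.68 ± 0.32 (adjusted p = 0.000479), the WT value 0.21 ± 0.31 (adjusted p = 0.610) and their difference 1.48 ± 0.44 (adjusted p = 0.0625).

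Tnrc6c (chr11:117654289-117763439, plus strand) had the lowest median level per kilobase of the GW182 transcripts in the course. It was the only member called for a genotype difference in the day 1 to 4 change. WT libraries stood at 50.5 and 63.6 CPM on day 1, 57.5 and 54.6 on day 2, 42.5 and 45.8 on day 3 and 45.2 and 48.6 on day 4. KO libraries stood at 43.9 and 40.0 CPM on day 1, 68.8 and 74.9 on day 2, 58.7 and 54.3 on day 3 and 57.5 and 64.2 on day 4. KO was below WT on day 1 and above it on each later day, and their libraries overlapped on no day. The KO rise of 0.54 ± 0.14 was called (adjusted p = 0.00412; not without KO day 4 replicate 2), the WT value of -0.28 ± 0.14 was not (adjusted p = 0.114), and the difference between them was 0.82 ± 0.20, adjusted p = 0.0311. That call, made beside 2.59% of genes called higher and 3.83% lower for the same difference, was kept only without WT day 1 replicate 1 or KO day 1 replicate 1 among 8 fits with 1 library left out, whose differences ranged from 0.63 to 0.96.

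Put on a per-kilobase scale, the 3 GW182 transcripts held different shares on day 1 and day 4. Tnrc6a made up 48.7% and 47.0% of their sum in the WT libraries of day 1 and 69.7% and 65.0% on day 4. The KO libraries started at 57.3% and 60.9% and ended at 73.2% and 66.8%. Tnrc6c held smaller shares later, from 23.6% and 21.9% to 11.8% and 11.3% in WT and from 20.5% and 22.0% to 9.96% and 9.70% in KO. The summed level was 24.2 and 32.9 CPM per kb in WT and 24.2 and 20.6 in KO on day 1, and 43.4 and 48.6 in WT and 65.2 and 74.8 in KO on day 4, so that of the KO libraries 1 lay inside and 1 below the WT range at the start, and both lay above it at the end. These shares are a description and were given no test of their own.

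**Figure D2:**
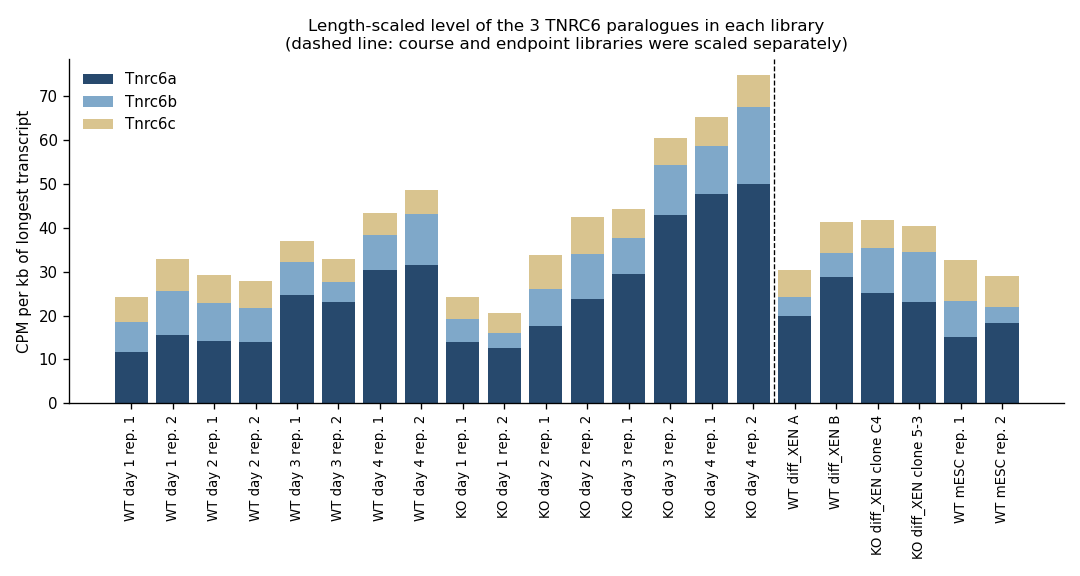
Summed level of Tnrc6a, Tnrc6b and Tnrc6c in each library, stacked, in CPM per kilobase of the longest coding transcript on the y axis, with single libraries along the x axis and a dashed line between the course and the endpoint libraries, which were scaled separately. The stacks of the KO libraries of day 4 reach 65.2 and 74.8 CPM per kb against 43.4 and 48.6 in WT, and Tnrc6a is the largest layer there.

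Dicer1 (chr12:104687742-104751952, minus strand), the cytoplasmic RNase, rose in KO and was not called in WT. The WT libraries contained 188 and 205 CPM on day 1, 191 and 155 on day 2, 165 and 132 on day 3 and 198 and 202 on day 4. The KO libraries contained 149 and 119 CPM on day 1, 189.5 and 218 on day 2, 214 and 238 on day 3 and 220.1 and 234 on day 4. KO thus lay below WT on day 1 and above it on days 3 and 4, with overlap on day 2. The KO change was 0.76 ± 0.16 (adjusted p = 0.000776), the WT value 0.023 ± 0.16 (adjusted p = 0.916), whose sign changed with the scaling, and the difference from WT was 0.74 ± 0.23 over days 1 to 4 (adjusted p = 0.0612). Over days 1 to 3, a comparison added after the data were seen, the difference was 1.16 ± 0.23 (adjusted p = 0.0167), beside 3.44% of all genes called higher, and it was lost without WT day 1 replicate 2, WT day 3 replicate 2, KO day 1 replicate 2 or KO day 3 replicate 2 and with only the libraries compared in the fit. With 1 library left out it had a range of 1.00 to 1.30.

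Tarbp2 and Prkra, the double-stranded RNA-binding partners of Dicer1, moved in opposite directions in both genotypes. Tarbp2 (chr15:102518192-102523676, plus strand) fell from 122 and 128 CPM on day 1 to 89.2 and 97.3 CPM on day 4 in WT, and from 128 and 170.4 to 82.9 and 80.8 CPM in KO. Prkra (chr2:76629898-76648015, minus strand) rose from 15.8 and 15.2 to 20.6 and 23.6 CPM in WT and from 17.1 and 16.9 to 29.5 and 27.0 CPM in KO. The day 1 and day 4 libraries of a genotype overlapped in neither gene. On days 2 and 3 Tarbp2 held 92.1 and 86.1 and then 92.7 and 70.3 CPM in WT, and 101 and 96.6 and then 82.1 and 82.8 CPM in KO. Prkra held 22.9 and 27.2 and then 21.9 and 29.9 CPM in WT, and 26.1 and 24.5 and then 26.4 and 26.6 CPM in KO. Most of the distance between day 1 and day 4 was thus already present on day 2 in both genes and genotypes. The changes of Tarbp2 were -0.42 ± 0.16 in WT (adjusted p = 0.0371) and -0.86 ± 0.16 in KO (adjusted p = 0.000254). Those of Prkra were 0.51 ± 0.17 in WT (adjusted p = 0.0243) and 0.73 ± 0.17 in KO (adjusted p = 0.00191). Both WT calls were lost with any 1 of the 4 libraries left out, and that of Prkra also without the expression filter. Per kilobase, the ratio of Tarbp2 to Prkra was 8.22 and 8.91 in the WT libraries of day 1 and 4.60 and 4.37 on day 4, and 7.90 and 10.7 and later 2.98 and 3.18 in KO. The size of this ratio depends on the transcript lengths used, but its direction over the days does not.

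Dgcr8 (chr16:18253948-18289246, minus strand) rose in both genotypes while its partner Drosha was not called in either. Dgcr8 stood at 32.0 and 31.9 CPM on day 1 and 51.6 and 48.6 CPM on day 4 in WT, and at 27.9 and 15.8 and then 55.9 and 54.1 CPM in KO, with no overlap of the days. On days 2 and 3 it held 29.1 and 28.9 and then 39.4 and 33.9 CPM in WT, and 26.1 and 35.1 and then 36.8 and 54.0 CPM in KO. Its day 1 to 4 change was 0.65 ± 0.24 in WT (adjusted p = 0.0356; lost with any 1 of the 4 libraries left out) and 1.33 ± 0.24 in KO (adjusted p = 0.000251). Drosha (chr15:12824815-12935291, plus strand) held 328 and 333 CPM on day 1 and 311 and 298 on day 4 in WT, and 268 and 241 and then 248 and 257 CPM in KO, which gave -0.12 ± 0.17 (adjusted p = 0.598) and -0.012 ± 0.17 (adjusted p = 0.957). On day 3 of WT its replicates stood far apart, at 285 and 177 CPM. The per-kilobase ratio of Drosha to Dgcr8 was 9.71 and 9.87 on day 1 and 5.70 and 5.80 on day 4 in WT. In KO it was 9.07 and 14.4 on day 1 and 4.19 and 4.49 on day 4. Exons of Dgcr8 overlap 825 bases of the opposite-strand gene Trmt2a, or 10.7% of its exonic sequence, so part of its count is uncertain where strand was not used in counting.

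Xpo5 (chr17:46202782-46243598, plus strand), the exporter of precursor hairpins, had the narrowest range of the members. WT libraries held 148 and 166 CPM on day 1, 119.6 and 99.6 on day 2, 120.1 and 127 on day 3 and 148 and 139 on day 4. KO libraries lay at 121 and 99.4 CPM on day 1, 121 and 129 on day 2, 122 and 131 on day 3 and 130.1 and 125 on day 4. The KO libraries lay below those of WT on days 1 and 4, above them on day 2, and overlapped with them on day 3. Its day 1 to 4 change was not called in WT (-0.13 ± 0.14, adjusted p = 0.461) or in KO (0.21 ± 0.14, adjusted p = 0.195).

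**Figure D3:**
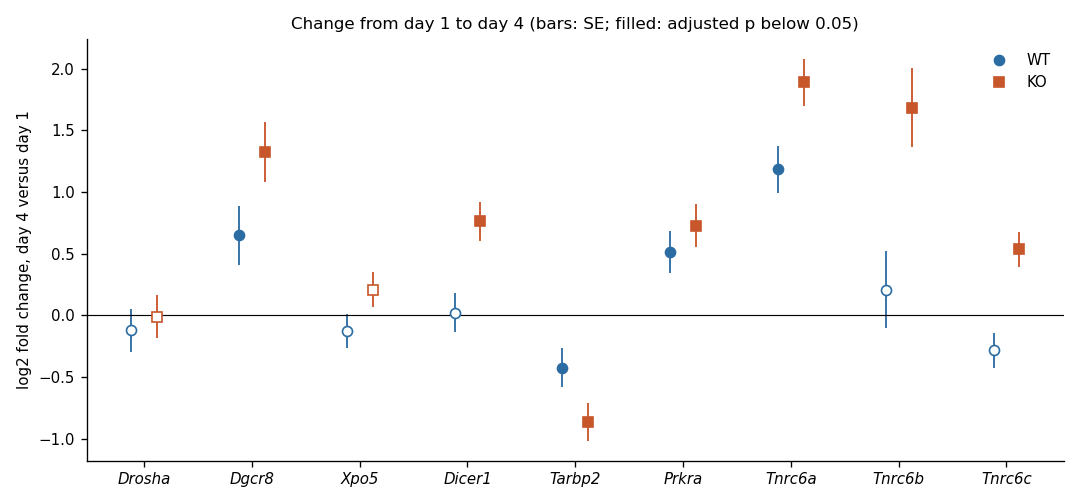
Change of each of the 9 genes from day 1 to day 4 in WT and in KO, on the y axis as log2 fold change with bars of 1 SE, with the genes along the x axis and filled points for changes called at an adjusted p below 0.05. Tnrc6a is the highest in both genotypes, at 1.18 in WT and 1.89 in KO, and Tarbp2 is below 0 in both.

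Set against WT on the same day, 0 to 2 of the 9 members were called in KO cells. On day 1, 2 of 9 were lower and 0 higher, beside 6.71% of all genes called lower and 6.89% higher, and the median member difference was -0.44 against -0.021 for all genes. On day 2 edgeR's quasi-likelihood test called 0, with 2 at an unadjusted p below 0.05 and 0 called by DESeq2, beside 1.63% of all genes called. On day 3, 1 was higher, beside 1.83% of genes called higher and 3.0% lower, and on day 4, 1 was higher, beside 1.99% and 5.05%. At an unadjusted p below 0.05 by the edgeR test stood 6 members on day 1, 3 on day 3 and 2 on day 4. The share of all genes at that unadjusted level was not counted. Averaged over the 4 days, 1 member was higher, beside 7.52% of genes called higher and 10.0% lower. The day 1 comparison shares its libraries with the changes over time given above.

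Both called members on day 1 were lower in KO. Dicer1, at 149 and 119 CPM in KO against 188 and 205 in WT, differed by -0.56 ± 0.16 (adjusted p = 0.0371). Xpo5, at 121 and 99.4 CPM against 148 and 166, differed by -0.51 ± 0.14 (adjusted p = 0.0332). Every KO library of that day lay under every WT library for each of them. Both calls were lost without WT day 1 replicate 1 or 2, without KO day 1 replicate 2 and with only the libraries compared in the fit, that of Xpo5 also without the expression filter, and over the 4 fits with 1 library left out the differences ranged from -0.67 to -0.39 for Dicer1 and from -0.60 to -0.35 for Xpo5. The larger difference of Tnrc6b, -0.93 ± 0.31, missed the threshold (adjusted p = 0.0630) but was called with DESeq2, without the expression filter, with only the libraries compared and without KO day 1 replicate 1. KO held 93.5 and 60.7 CPM and WT 116 and 177 CPM, a wide spread within each genotype. Tnrc6c was at -0.44 ± 0.14 (adjusted p = 0.0507), Dgcr8 at -0.54 ± 0.24 (adjusted p = 0.128) and Drosha at -0.38 ± 0.17 (adjusted p = 0.145). Only Tarbp2 (0.25 ± 0.16, adjusted p = 0.270) and Prkra (0.14 ± 0.17, adjusted p = 0.605) had positive values among the 9.

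On day 3 Dicer1 was the called member, this time higher in KO, at 214 and 238 CPM against 165 and 132 CPM in WT. The difference was 0.61 ± 0.16 (adjusted p = 0.0428), and the call was lost without WT day 3 replicate 2 or either KO day 3 library, and with only the libraries compared in the fit. Tnrc6a was at 0.60 ± 0.19 on that day (adjusted p = 0.0842) and Tnrc6b at 0.65 ± 0.31 (adjusted p = 0.261). On day 4 Tnrc6a was the called member, at 391 and 409 CPM in KO against 248 and 259 CPM in WT, a difference of 0.66 ± 0.19 (adjusted p = 0.0492) that lost its call with any 1 of the 4 libraries left out. Over all 4 days, KO exceeded WT in Tnrc6a by 0.44 ± 0.094 (adjusted p = 0.00493), a call that held in 16 of 16 fits with 1 library left out, in which it ranged from 0.39 to 0.52. On day 1, though, the value was -0.046 ± 0.19 (adjusted p = 0.891), with KO libraries at 114 and 102 CPM inside the WT range of 96.5 and 127 CPM.

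**Figure D4:**
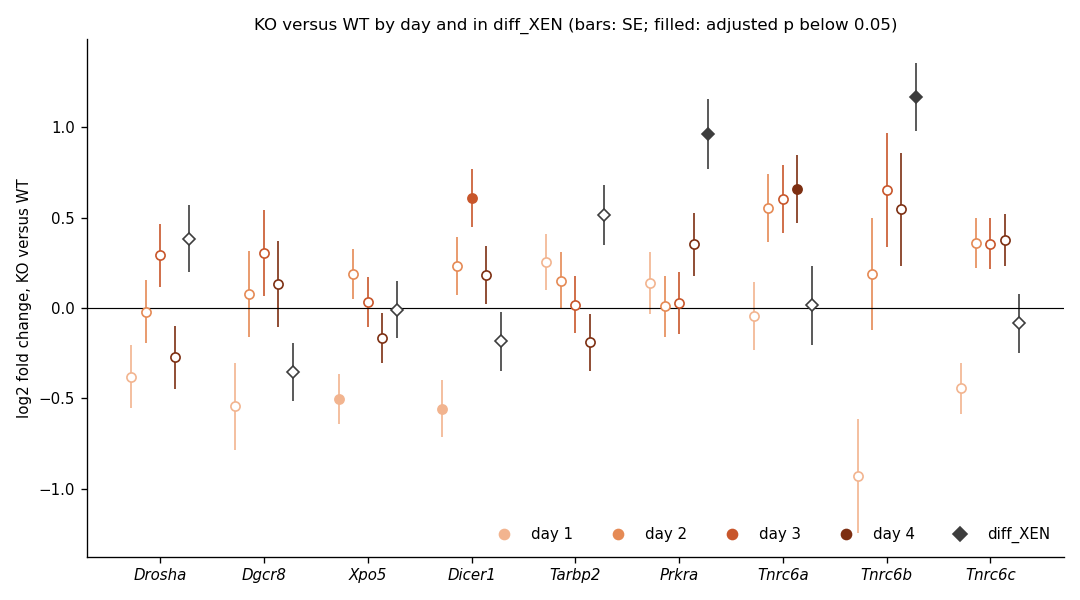
Difference between KO and WT for each of the 9 genes on each day and in diff_XEN, on the y axis as log2 fold change with bars of 1 SE, with the genes along the x axis and filled points for differences called at an adjusted p below 0.05. Of the 9 members 2 lie above 0 on day 1 and 6 on day 4, and Tnrc6b in diff_XEN, at 1.17, is the largest called difference.

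At the endpoint, Tnrc6b and Prkra were higher in KO. In diff_XEN, 2 of 9 members were thus higher in KO and 0 lower, beside 22.1% of 16671 tested genes called higher and 24.9% lower, with a median member difference of 0.015. The share of members called higher is near that of all genes. Levels are given on the scaling of all 6 endpoint libraries, whereas the test used only the 4 diff_XEN libraries. WT libraries held 76.1 and 94.1 CPM of Tnrc6b, and KO held 176 (clone C4) and 198 CPM (clone 5-3). For Prkra the values were 15.8 and 16.1 CPM in WT and 28.6 and 32.1 CPM in the same 2 clones. Both clones lay above both WT libraries in each gene. The difference was 1.17 ± 0.19 for Tnrc6b (adjusted p = 0.00668), called also with any 1 of the 4 libraries left out, and 0.96 ± 0.19 for Prkra (adjusted p = 0.0128), where the call was lost without clone 5-3.

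The remaining members were not called in diff_XEN. Tarbp2 came nearest, with 32.9 and 34.1 CPM in WT and 50.9 and 43.1 CPM in KO, a difference of 0.51 ± 0.17 (adjusted p = 0.0516). Drosha was at 0.38 ± 0.18 (adjusted p = 0.141), Dgcr8 at -0.35 ± 0.16 (adjusted p = 0.125) and Dicer1 at -0.18 ± 0.16 (adjusted p = 0.395). Tnrc6a, higher in KO over the course, had 162 and 236 CPM in WT and 206 and 189 CPM in KO diff_XEN, so that both KO values lay inside the WT range. Its share of the summed GW182 transcripts per kilobase was 65.0% and 69.5% in WT and 60.0% and 57.0% in KO, while that of Tnrc6b was 14.4% and 13.1% in WT and 24.3% and 28.3% in KO. The 8 endoderm markers, which summed to 22420 to 36190 CPM in WT and 1570 to 2287 CPM in KO diff_XEN, moved with these differences, and each clone is a single library. Neural markers moved too, with 2 of 3 tested higher in KO and sums of 79.3 to 83.6 CPM in KO and 11.9 to 16.8 CPM in WT.

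Drosha, Dicer1 and Xpo5 were lower in WT diff_XEN than in undifferentiated WT mESC. Compared with mESC, 3 of 9 members were lower in diff_XEN and 0 higher, beside 25.3% of 17936 tested genes called lower and 27.2% higher, with a member median of -0.29. Drosha was at 349 and 352 CPM in mESC and 199 and 215 in diff_XEN, a difference of -0.76 ± 0.21 (adjusted p = 0.0187). Dicer1 was at 243 and 238 CPM in mESC and 141 and 166 in diff_XEN, a difference of -0.64 ± 0.20 (adjusted p = 0.0298). Xpo5 was at 219 and 186 and 135 and 119.7 CPM, a difference of -0.67 ± 0.21 (adjusted p = 0.0290). In each of the 3 genes both diff_XEN libraries lay below both mESC libraries. All 3 calls were lost without either of the WT diff_XEN libraries, and that of Xpo5 also without mESC replicate 1. Those of Dicer1 and Xpo5 were lost too without the expression filter or with only the libraries compared in the fit. Per kilobase, the ratio of Drosha to Dgcr8 was 3.42 and 2.95 in mESC and 2.48 and 2.34 in WT diff_XEN.

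Among the other members Tnrc6a had 123 and 149 CPM in mESC and 162 and 236 CPM in diff_XEN (0.55 ± 0.25, adjusted p = 0.101), and Dgcr8 had 96.3 and 113 and 75.7 and 87.0 CPM (-0.36 ± 0.21, adjusted p = 0.178). The mESC libraries disagreed on Tnrc6b, with 143 and 63.5 CPM, and on Tarbp2, with 49.9 and 22.3 CPM. The passage of the mESC and other differences between the libraries, which were re-used from earlier studies, cannot be told apart from the cell state.

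**Figure D5:**
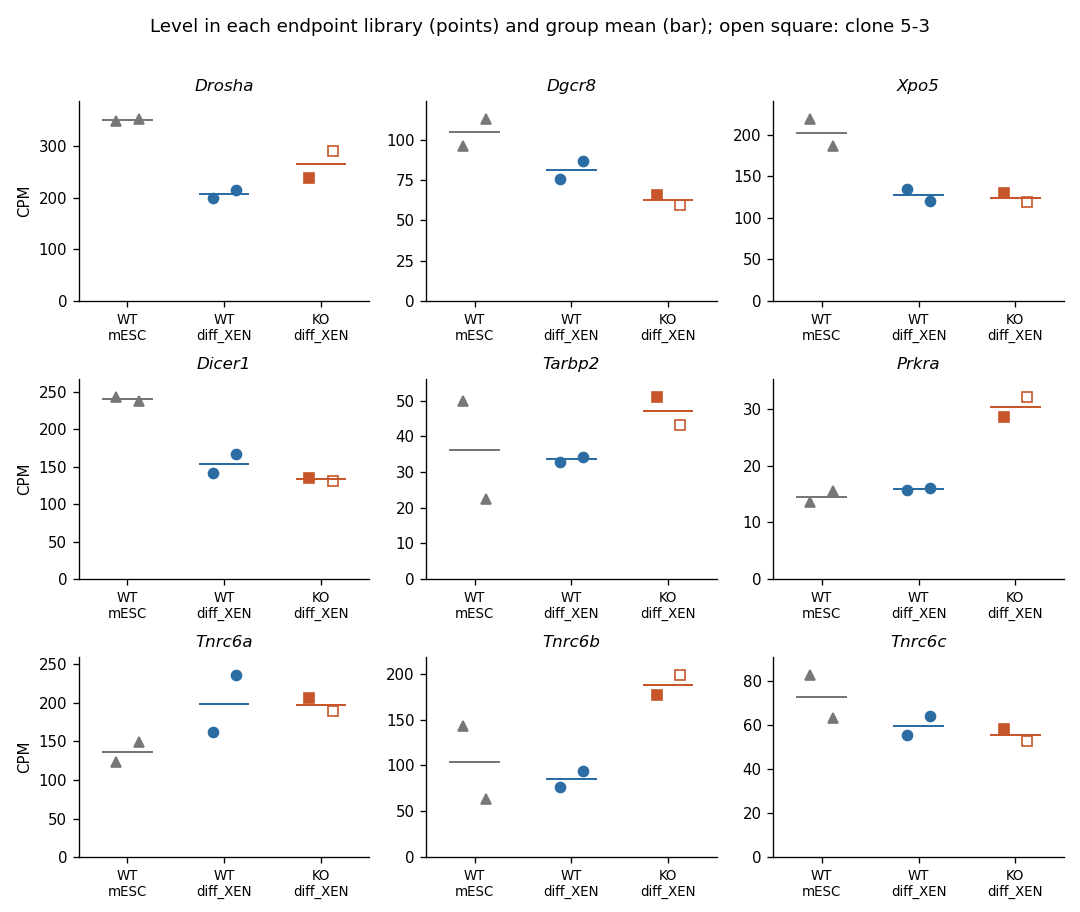
Level of each of the 9 genes in the 6 endpoint libraries, 1 panel per gene, in CPM on the y axis, with points for single libraries of WT mESC, WT diff_XEN and KO diff_XEN on the x axis. Dicer1, Drosha and Xpo5 are highest in mESC, and Tnrc6b and Prkra are higher in KO than in WT diff_XEN, with Prkra at 28.6 and 32.1 against 15.8 and 16.1 CPM.

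Across the 16 course libraries some members varied together. On log2 CPM, Pearson's r was 0.905 between Dicer1 and Tnrc6b, 0.870 between Dgcr8 and Tnrc6a, and -0.864 between Tarbp2 and Prkra. These pairs were picked as the strongest among the members. Others lay near 0, such as Drosha and Tnrc6a at -0.111 and Xpo5 and Tarbp2 at -0.0491. All are descriptions over 16 libraries that share days, genotypes and scaling. Of 10972 genes above the minimum level, the most similar profile to Dicer1 was that of Nedd4 (r = 0.976), to Tnrc6a that of Crybg3 (r = 0.990), to Tnrc6b that of Nr2c2 (r = 0.955) and to Tnrc6c that of Dag1 (r = 0.900). For Dgcr8 it was Setd2 (r = 0.982), for Drosha Nsdhl (r = 0.911), for Xpo5 Trappc8 (r = 0.929) and for Prkra B3glct (r = 0.910). Nr2c2 stood among the 3 most similar genes of both Dicer1 (r = 0.946) and Tnrc6b (r = 0.955).

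The wider pathway was followed in lists of genes that act on the members or after them. Of 18 regulators of the Microprocessor and of precursors, 4 rose and 4 fell from day 1 to 4 in WT (2 to 4 and 2 with 1 library left out), and 9 rose and 3 fell in KO (6 to 9 and 2 to 4), with a median of 0.30 in KO against -0.017 for all genes. Zswim8, a receptor in the decay of microRNAs directed by their targets, rose by 2.39 ± 0.18 in WT and 2.90 ± 0.18 in KO. Zcchc6, a uridylyl transferase that tails let-7 precursors, rose by 1.09 ± 0.16 in WT and 1.56 ± 0.16 in KO. Of 12 chaperones and import factors that load Argonautes, 6 fell in WT (4 to 6 with 1 library left out) and 8 in KO (7 to 9), and none rose by edgeR's quasi-likelihood test or by DESeq2. Hsp90aa1, which holds Argonaute open for loading, changed by -1.49 ± 0.14 in WT and -1.19 ± 0.14 in KO, and its cochaperone Fkbp4 by -0.86 ± 0.16 and -1.72 ± 0.16. In WT diff_XEN 8 of these 12 were lower than in mESC, beside 25.3% of 17936 tested genes called lower and 27.2% higher. The number lower moved up or down with the library left out. The median of the 12 was -1.02 against -1.7e-04 for all genes.

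Downstream of the GW182 proteins, 16 genes were listed for the CCR4-NOT and PAN2-PAN3 deadenylases. Among the 16 were the poly(A)-binding protein genes Pabpc1 and Pabpc4. Of this list 5 rose and 3 fell over the WT course, and 6 rose and 4 fell over the KO course. These counts changed with the library left out. Pabpc4 was among those that fell, at -0.54 ± 0.13 in WT and -0.88 ± 0.13 in KO. Of 18 genes of decapping and repression, 3 rose and 2 fell in WT (1 to 2 and 0 to 1 with 1 library left out) and 9 rose and 2 fell in KO (6 to 9 and 2 to 3). Among those called in KO, the exonuclease gene Xrn1 rose by 1.55 ± 0.23, the decapping activator gene Ddx6 by 1.15 ± 0.18, the decapping enzyme gene Dcp2 by 1.08 ± 0.21 and Limd1, which links Argonaute to decapping, by 1.75 ± 0.17. Of the 4 Argonautes, 1 rose in WT, Ago4 by 1.07 ± 0.34 (called with 1 of the 4 libraries, WT day 1 replicate 2, left out and not with the others), and 3 rose in KO, Ago4 by 1.96 ± 0.35, Ago3 by 1.49 ± 0.29 and the remaining Ago2 reads by 1.74 ± 0.30. These counts stand beside 26.9% of all genes called higher and 21.6% lower in WT, and 33.3% and 32.9% in KO. In KO diff_XEN against WT, 6 genes of the deadenylase list were lower and none higher, beside 24.9% of all genes called lower and 22.1% higher. The number lower was smaller in some fits with 1 library left out. Cnot1, the scaffold to which GW182 proteins bind, was at -1.24 ± 0.22 (adjusted p = 0.00835), a call lost without clone C4.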

How the data were processed

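The values used were raw read counts per gene that the authors deposited, and each library had its own total. The submitters' processing notes name STAR 2.5.0c, featureCounts 1.4.5-p1 and the build mm10. Which annotation release was counted, and whether by strand, is not given in the sources used here. Of 24 samples in 12 groups, 22 libraries in 11 groups were used. KO mESC (2 samples) was not analysed here, and 3 columns of the series table that no label ties to a sample were used in no step.

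The quasi-likelihood test of edgeR 4.0.16 (R 4.3.3) was run after TMM scaling and edgeR's default filter on low counts, with robust dispersion and a mean per group. The 16 course libraries formed 1 fit of 8 groups, the 4 diff_XEN libraries another and all 6 endpoint libraries the last. The mESC counts, deposited separately under the same identifiers, were joined to them. Levels were not compared between course and endpoint. Adjusted p values follow Benjamini and Hochberg over all genes tested, with a threshold of 0.05, and the SE of a log2 fold change was derived from the F statistic. The edgeR test of KO against WT on day 1 and day 4 was tried on simulated counts of the course libraries. In these, 200 genes were changed in KO on day 4. DESeq2 was tried on day 4 of the same counts. The other comparisons and the endpoint fits were not simulated. No replicate pair was close enough to be 1 library (chi-square per degree of freedom 12.6 to 148.9 over genes with at least 20 counts). CPM per kb divides by the longest coding transcript of GENCODE vM21.

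Named were the 9 members in every comparison, Ago2, up to 4 called genes of each of 6 pathway lists per comparison, and for each member the 3 genes with the highest Pearson r of log2 CPM (pseudocount 0.5) among genes whose mean reached 5 CPM. Alternatives were DESeq2 size factors, the Wald test of DESeq2 1.42.0, no expression filter, the replicate number as a block, only the libraries compared, and each library left out in turn. Comparisons of other pairs of days were added after the data were seen. Similar genes are not reported here for every member. The members and lists were chosen with earlier results of these data known. The list of microRNA host transcripts held 11 names, of which 7 were in the files. From day 1 to 4, 3 of these rose and 1 fell in WT, beside 26.9% of all genes called higher and 21.6% lower. In KO 3 rose and 2 fell, beside 33.3% called higher and 32.9% lower. Mir143hg was at 0 in every library of day 1 in both genotypes, and Mir99ahg in every KO library of that day.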

Additional observations from a re-analysis of the deposited data

Results flagged for a closer look

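Where the genotypes' changes differed, Tnrc6c and Dicer1 passed a test of that difference. For Tnrc6c the KO change from day 1 to 4 exceeded the WT change by 0.82 on the log2 scale (SE 0.20, adjusted p = 0.0311 by edgeR's quasi-likelihood test), and from day 1 to 3 by 0.80 (SE 0.20, adjusted p = 0.0354), beside 3.44% of all genes called higher. The day 1 to 3 call of Tnrc6c held in 3 of 8 fits with 1 library left out, being lost without WT day 1 replicate 2, WT day 3 replicate 2, KO day 1 replicate 2 or either KO day 3 library, and it was lost with only the libraries compared in the fit. For Dicer1 the KO change from day 1 to 3 exceeded that of WT by 1.16 (SE 0.23, adjusted p = 0.0167).

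In further cases both KO libraries lay on 1 side of both WT libraries on the first day and on the other side on the second, but the test of the difference was not passed. From day 1 to 4 this held for Dicer1, with a difference of 0.74 (SE 0.23, adjusted p = 0.0612), and for Dgcr8, with 0.68 (SE 0.34, adjusted p = 0.208). From day 1 to 3 it held for Tnrc6b, with 1.58 (SE 0.44, adjusted p = 0.0511). From day 1 to 2 it held for Xpo5, with 0.69 (SE 0.20, adjusted p = 0.113), and for Tnrc6c, with 0.80 (SE 0.20, adjusted p = 0.111). From day 2 to 4 it held for Xpo5, with -0.35 (SE 0.20, adjusted p = 0.686), and for Tarbp2, with -0.34 (SE 0.22, adjusted p = 0.755). Comparisons other than day 1 to 4 were added after the data were seen, and those that start on day 1 share its libraries. These cases were picked from all members and all pairs of days. How many of all genes did the same was not counted, so the cases describe single genes and not the members as a group.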

How the results depend on the processing

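The day 1 to 4 rise of Tnrc6a in both genotypes, its higher average level in KO, the higher Tnrc6b of KO diff_XEN and the KO day 1 to 4 changes of Dicer1, Dgcr8, Tarbp2, Prkra and Tnrc6b were called with any 1 library left out. With 2 libraries per group, the other calls of members were lost without at least 1 library, and the cause was not tested. The number of members called on day 1 (2) was 4 with DESeq2, 1 (Tnrc6b) with only the libraries compared and 0 to 5 with 1 library left out, the 5 being reached without KO day 1 replicate 1. On day 2 (0) it was 1 without the expression filter and 1 with only the libraries compared. On day 3 (1) it was 3 without the filter, 0 with only the libraries compared, 0 with the replicate number as a block, where the call of Dicer1 was lost, and 0 to 2 with 1 library left out. On day 4 (1) it was 2 without the filter and 0 with any 1 library left out. For the WT change (4) it was 1 to 2 with 1 library left out. For the genotype difference in change (1) it was 3 with DESeq2, 3 without the filter, 2 with only the libraries compared and 0 to 5 with 1 library left out. In KO against WT diff_XEN (2) it was 1 without clone 5-3 and 2 without any other library. For WT diff_XEN against mESC (3) it was 1 without the filter, 1 with only the libraries compared and 0 to 4 with 1 library left out. Over all genes, the 2406 calls of day 1 became 3754 without the filter and 45 to 4225 with 1 library left out. The 288 of day 2 became 573 with DESeq2, 1094 without the filter, 1440 with only the libraries compared and 49 to 105 with 1 left out. The 854 of day 3 became 1296, 2035, 35 and 271 to 2643 in the same order. The 1246 of day 4 became 2119 without the filter and 443 to 835 with 1 left out. The 1136 of the genotype difference became 2022 with DESeq2, 2707 without the filter and 222 to 3133 with 1 left out. The 7835 of diff_XEN became 4180 without clone 5-3, 4280 without C4 and 5096 without WT library B. Signs turned only in values that were not called. With DESeq2 size factors, the DESeq2 test, no filter and only the libraries compared, the WT change of Dicer1 was -0.0050, -0.0050, -0.025 and -0.016. The average difference of Dgcr8 became 0.0081 with the size factors and 0.0082 with DESeq2. Tarbp2 on day 3 became -0.0027 with only the libraries compared, and Xpo5 in diff_XEN 0.025 without the filter. With 1 library left out, the values ranged from -0.19 to 0.20 for Tnrc6a on day 1, -0.15 to 0.27 for Dgcr8 and -0.11 to 0.15 for Prkra on day 2, and -0.0018 to 0.10 for Xpo5, -0.14 to 0.24 for Tarbp2 and -0.17 to 0.30 for Prkra on day 3. They ranged from -0.15 to 0.018 for Drosha and -0.0998 to 0.0995 for Dgcr8 on average, and from -0.070 to 0.053 for Dicer1 and -0.12 to 0.51 for Tnrc6b in the WT change. At the endpoint the ranges were -0.060 to 0.053 for Xpo5, -0.26 to 0.34 for Tnrc6a and -0.21 to 0.051 for Tnrc6c between genotypes, and -0.58 to 0.61 for Tarbp2 and -0.75 to 0.44 for Tnrc6b against mESC. Deviations of same-numbered replicates correlated at -0.38 to 0.65 over 28 pairs of groups, 8 above 0.1 and 16 below -0.1. They went together for WT and KO on day 4 (0.65) and for KO on days 2 and 3 (0.63) but not in every pair, so the numbers were not taken to pair the samples. For diff_XEN no paired analysis was possible, because its columns carry no replicate numbers. In the course, the block on the replicate number changed no other count of members.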

Other observations

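Genes that act on the members also separated the genotypes. Lin28b, which binds let-7 precursors and holds back their processing, stood at 39.1 and 39.2 CPM in WT and 101 and 108 CPM in KO on day 4. The difference was 1.42 ± 0.22 (adjusted p = 0.000826 by edgeR's quasi-likelihood test) and was called with any 1 of the 4 libraries left out. Averaged over the 4 days, Lin28b was higher in KO by 0.89 ± 0.11 (adjusted p = 6.34e-05) and its paralogue Lin28a by 0.42 ± 0.12 (adjusted p = 0.0223), both in 16 of 16 fits with 1 library left out. On day 4 alone, however, Lin28a stood at 233 and 247 CPM in WT and 164 and 207 CPM in KO, a value of -0.38 ± 0.24 that was not called (adjusted p = 0.408). In diff_XEN both paralogues were called, in opposite directions. Lin28b stood at 2.19 and 2.81 CPM in WT and 12.8 and 22.7 CPM in KO, a difference of 2.84 ± 0.37 (adjusted p = 0.00404), and Lin28a at 157 and 283 against 7.29 and 16.2 CPM, a difference of -4.23 ± 0.50 (adjusted p = 0.00346). Of the stem cell markers, 4 of 6 were also lower in KO diff_XEN, and the part of cell makeup in these values was not tested.

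Downstream, Mov10, an RNA helicase found with Argonaute complexes, was higher in KO on day 1 by 1.02 ± 0.15 (adjusted p = 0.00304) and on average by 0.63 ± 0.074 (adjusted p = 5.19e-05), the latter called in 16 of 16 fits with 1 library left out. Its libraries held 88.3 and 88.4 CPM in WT and 170.5 and 188 CPM in KO on day 1. Ago1, an Argonaute beside the targeted Ago2, was higher in KO on average by 0.38 ± 0.10 (adjusted p = 0.0164), also in 16 of 16 such fits. On day 1, however, its libraries overlapped, at 91.5 and 117 CPM in KO and 105 and 128 CPM in WT. Of single days it was called only on day 3, by 0.82 ± 0.20. That call was lost without WT day 3 replicate 2 or either KO day 3 library. In diff_XEN Ago3 differed in the KO by -1.49 ± 0.29 (adjusted p = 0.0110), a call lost without clone 5-3.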
